A study of Homo sapiens with 2 samples.

Results

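The genes described here are GJA5, GJA1 and GJC1, which encode the gap junction proteins connexin 40, connexin 43 and connexin 45, 3 of the 22965 genes with a count in the deposited tables. They were found by matching Ensembl IDs to symbols. GJA5 was chosen by its measured count, which was far lower in the PKP2 library than in the vector library, so that ratio is given as a description and supports nothing. GJA1 and GJC1 were chosen because their proteins are known to sit beside plakophilin 2 in cell contacts. RNA-seq counts came from 2 libraries of H460, an established human line from a large-cell carcinoma of the lung. The first library is of cells in which the pSin-puro vector delivered PKP2, the gene of plakophilin 2, labelled as overexpression of PKP2. The other is of control cells labelled vector. Both cultures were at passage 5 in DMEM with 10% FBS, there is 1 library per group, and the labels do not describe the cells as a clone or a pool. The study set out to find genes downstream of PKP2.

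Connexins are membrane proteins that assemble into hexameric half-channels, which dock across the gap between neighbouring cells and let ions and small molecules pass. Connexin 43 is the most widely expressed of them and is abundant in ventricular muscle and in many epithelia and cultured lines. Connexin 40 is known from atrial muscle, the fast conduction system of the heart and arterial endothelium, and connexin 45 from the cardiac nodes and smooth muscle. Plakophilin 2 is an armadillo protein of desmosomes. In the intercalated disc of heart muscle, desmosomes lie close to gap junctions, and in cultured rat heart cells plakophilin 2 and connexin 43 have been found in 1 complex.

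The docking surface of a connexin consists of 2 extracellular loops, each held by 3 cysteines. The coding stretches around the cysteines of the second loop are shown for GJA1 and GJC1 because there the genes are plainly relatives, and because their differences bear on whether reads of one could be counted for the other. They were read from GENCODE release 29 transcripts, 5′ to 3′ on the coding strand, and the cysteine codons are in capitals. They begin at base 547 of the coding sequence in GJA1 and at base 613 in GJC1:
GJA1: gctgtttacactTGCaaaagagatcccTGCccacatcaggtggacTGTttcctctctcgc
GJC1: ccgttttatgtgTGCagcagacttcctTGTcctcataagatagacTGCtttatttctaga

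Each stretch is 60 bases long, and the 3 cysteine codons have the same spacing in both genes, which match at 37 of 60 bases. Over the aligned coding sequences, which run to 382 codons in GJA1 and 396 in GJC1, identity was 59.2% for GJA5 and GJA1, 59.4% for GJA5 and GJC1 and 57.6% for GJA1 and GJC1. The longest exact stretch that any transcript of GJA5 shares with any transcript of GJA1 is 14 bases, against 13 bases for GJA5 and GJC1 and 12 for GJA1 and GJC1.

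Other sequences do overlap the members. Of the distinct 31-base stretches of GJA5 transcripts, 18.2% are also found in another annotated gene, all of them in an antisense RNA gene (ENSG00000274415) that overlaps GJA5 exons on the opposite strand and has no row in the tables used here. None are found in another gene of the tables. No source used here gives whether counting used strand, so reads of GJA5 and its antisense partner cannot be told apart. GJA1 shares 11.5% of its stretches with its processed pseudogene GJA1P1, which had 4 counts in the PKP2 library and 6 in the vector library. GJC1 shares 7.34% with other genes of the tables.

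PKP2 itself (ENSG00000057294) had 1330 counts in the PKP2 library and 181 in the vector library, the direction of the labels. The libraries held 20319137 and 23513304 counts in PKP2 and vector. Levels below are CPM, counts scaled to the library total with edgeR's TMM factors. Log2 ratios set the PKP2 library over the vector library. Genes averaging 10 or more counts over the libraries are called measured. With 1 library per group no difference has a replicate check and no p-value can be given. The 95% intervals are exact and cover counting error only. H460 was checked against marker lists. The keratin genes KRT8 (9369 and 16537 counts in PKP2 and vector) and KRT18 (3795 and 5954) were high. KRT19, another keratin gene, was high too and went the other way between the libraries, with 11645 counts in the PKP2 library and 6501 in the vector library. Its log2 ratio was 1.08 (1.46 with the trend across GC content subtracted). KRT8 was at -0.58 (-0.31 with that trend subtracted) and KRT18 at -0.41 (-0.09). The epithelial adhesion gene EPCAM had 16 and 28 counts and CDH1 was not analysed here. The lung lineage factor NKX2-1 had 3 and 10 counts.

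GJA5 (ENSG00000265107, chromosome 1) differed more between the libraries than any other connexin gene described here. It had 260 counts in the PKP2 library and 1857 in the vector library, which is 12.9 CPM (interval 11.4 to 14.6) and 78.3 CPM (74.8 to 81.9). The level in the PKP2 library was 16.5% of that in the vector library, 6.06-fold lower (interval 5.32 to 6.93), a log2 ratio of -2.60 (-2.79 to -2.41). The intervals of the levels lie far apart. By level GJA5 ranked 9128 among all genes of the table in the PKP2 library and 2872 in the vector library. Of the 15991 measured genes, 0.35% had a lower ratio. Of the 4845 that averaged 1000 or more counts GJA5 had the third lowest, and it is among them only through its count in the vector library. The interval of GJA5 lay wholly beyond 2-fold lower, as it did for 1.18% of measured genes. Nothing is read from these ranks or from the interval, since the gene was picked on that ratio. In a bulk library, fewer cells that express a gene and less RNA per cell cannot be told apart.

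GJA1 (ENSG00000152661, chromosome 6) was high in both libraries and nearly level between them. It had 1653 counts in the PKP2 library and 1971 in the vector library, or 82.1 CPM (interval 78.2 to 86.1) and 83.1 CPM (79.4 to 86.8). The log2 ratio was -0.02 (interval -0.11 to 0.08). Without a correction for GC content, counting error allows at most a 1.08-fold lower or a 1.06-fold higher level in the PKP2 library. Of measured genes 51.0% had a lower ratio, which places GJA1 at the middle of the table.

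GJC1 (ENSG00000182963, chromosome 17) differed little between the libraries. It had 294 counts in the PKP2 library and 393 in the vector library, or 14.6 CPM (interval 13.0 to 16.4) and 16.6 CPM (15.0 to 18.3). The log2 ratio was -0.18 (interval -0.41 to 0.04), and the intervals of the levels overlap. Without a correction for GC content, a level up to 1.32-fold lower lies within counting error, and so does no difference at all.

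**Figure D1:**
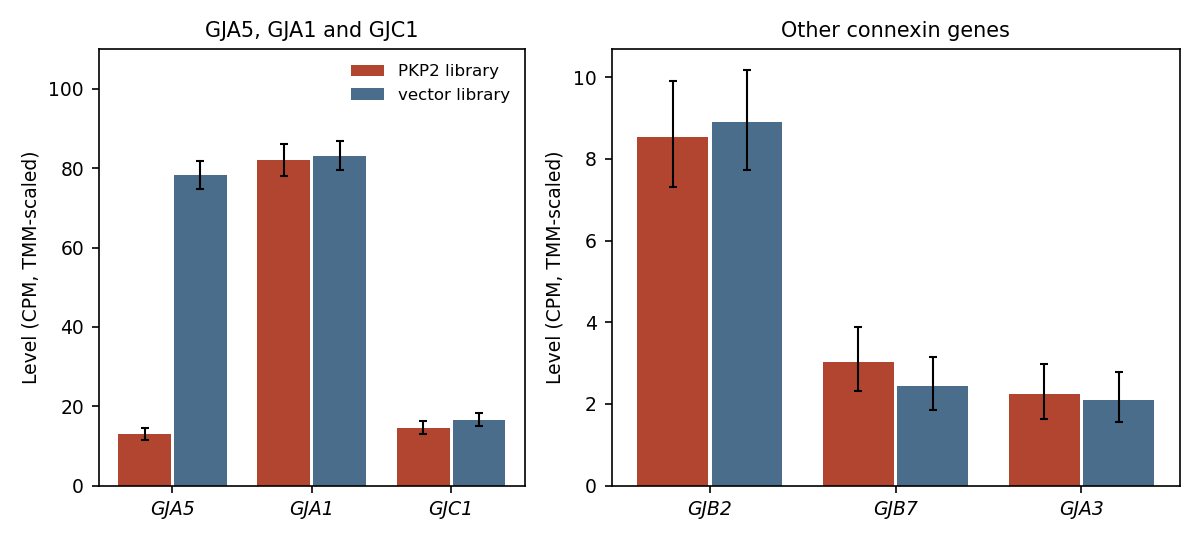
Level of 6 connexin genes in CPM (bars) in the PKP2 library (left of each pair) and the vector library (right), with exact 95% Poisson intervals as error bars and 1 library per group. GJA5 stands at 12.9 CPM in the PKP2 library and 78.3 CPM in the vector library, while for GJC1, GJA1 and the genes of the right panel the intervals of both libraries overlap.

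The ratio of GJA5 to its relatives within a library does not depend on how the libraries were scaled. There were 0.157 GJA5 counts per GJA1 count in the PKP2 library and 0.942 in the vector library. Against GJC1 the quotient was 0.884 in the PKP2 library and 4.73 in the vector library. GJA1 over GJC1 was 5.62 and 5.02 in PKP2 and vector. On the log2 scale, the PKP2 library minus the vector library, these quotients differed by -2.58 for GJA5 over GJA1, -2.42 for GJA5 over GJC1 and 0.16 for GJA1 over GJC1. Of all counts of the 3 genes, GJA5 took 11.8% in the PKP2 library (exact Clopper-Pearson interval 10.5% to 13.2%) and 44.0% in the vector library (42.5% to 45.5%). GJA1 took 74.9% and 46.7%, and GJC1 13.3% and 9.31%, in PKP2 and vector. The total behind these shares holds the counts of GJA5, so they move with that gene. Because GJA5 was picked for its lower count, quotients and shares that include it are a description only. None of them was corrected for GC content.

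Levels of different genes were compared per kilobase of the longest principal transcript. GJA1 was at 26.0 CPM per kilobase in the PKP2 library and 26.4 in the vector library. GJA5 was at 4.06 in the PKP2 library and 24.6 in the vector library. GJC1 was at 1.91 and 2.17. How near these levels lie depends on the transcript. With the shortest principal transcript of GJA1, of 2208 bases, its level is 37.2 CPM per kilobase in the PKP2 library and 37.6 in the vector library. The place of GJC1 depends on it too: principal transcripts of GJC1 run from 1837 to 7640 bases, and with the shortest its level is 7.95 CPM per kilobase in the PKP2 library and 9.02 in the vector library. In the vector library the order by these values is GJA1, GJA5, GJC1 with either length. The longest principal transcripts of GJA1 and GJA5 are close in length, at 3152 and 3183 bases. Their CPM intervals in the vector library overlap (79.4 to 86.8 and 74.8 to 81.9). With the longest transcripts the order of GJA1 and GJA5 is thus not settled there. In the PKP2 library GJA5 lies above GJC1 with the longest transcript and below it with the shortest, so the order of these genes there cannot be settled.

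In all 6 connexin genes are described here, each of them measured, and others, such as GJA4, were not analysed here. The median log2 ratio of the 6 was -0.04, against -0.03 over all genes. Only GJA5, which was picked for it, was at least 2-fold lower, where 4.61% of all genes were. None was at least 2-fold higher, where 2.46% of all genes were. GJA5 was also the sole gene of the 6 whose interval, taken without a GC correction, excluded 0. Of all genes, 28.8% had an interval wholly below 0 and 25.9% wholly above. Nothing is read from this, since GJA5 was picked on its ratio.

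The other connexin genes were low in both libraries. GJB2, which encodes connexin 26, known for its role in the inner ear and skin, had 172 counts in the PKP2 library and 211 in the vector library, a log2 ratio of -0.06 (interval -0.36 to 0.24). GJB7, connexin 25, had 61 and 58 counts in PKP2 and vector, a log2 ratio of 0.31 (-0.23 to 0.85). It overlaps SMIM8 on the opposite strand. GJA3, connexin 46, a lens connexin, had 45 and 50 counts, a log2 ratio of 0.08 (-0.53 to 0.69).

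Summed over the 6 genes, connexin RNA was at 123 CPM in the PKP2 library and 191 CPM in the vector library, a log2 ratio of -0.63 (interval -0.70 to -0.56). Without GJA5 the sum was 110.5 CPM in the PKP2 library and 113 CPM in the vector library, a log2 ratio of -0.03 (-0.12 to 0.05). The difference, PKP2 minus vector, was -68.0 CPM for all 6 genes, -65.4 CPM for GJA5 and -2.60 CPM for the other 5 together. Because GJA5 was picked for its lower count, sums that include it are a description only. Per kilobase the sums were 37.4 CPM in the PKP2 library and 58.4 in the vector library.

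**Figure D2:**
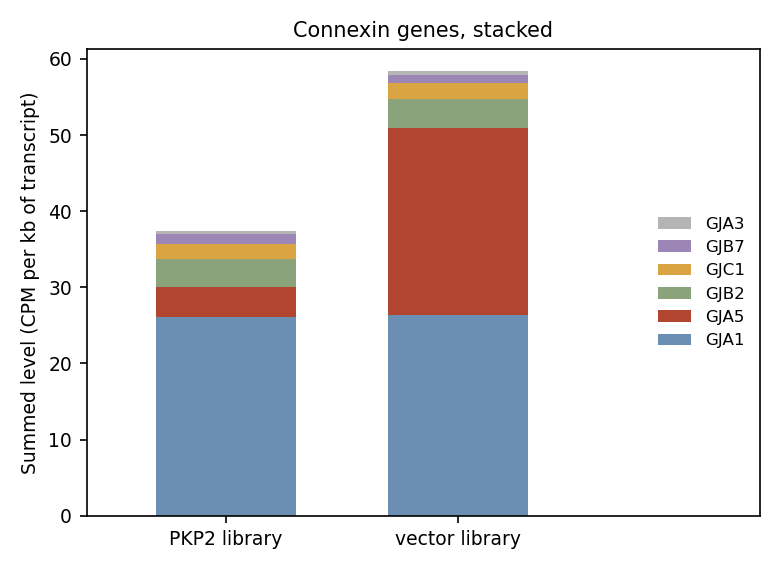
Summed level of 6 connexin genes in CPM per kilobase of the longest principal transcript, stacked by gene, in the PKP2 library (left) and the vector library (right). The sum is 37.4 in the PKP2 library and 58.4 in the vector library. The segment of GJA5, the gene picked for its ratio, is the visible difference, at 4.06 and 24.6.

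**Figure D3:**
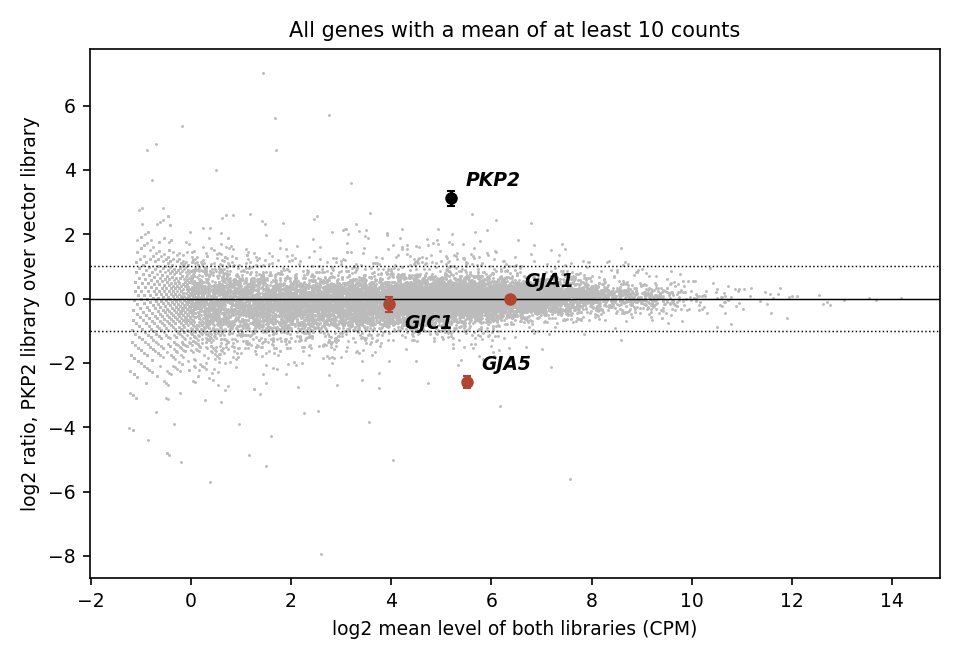
Log2 ratio, PKP2 over vector (y axis), against the log2 mean level of both libraries in CPM (x axis) for 15977 measured genes with a count above 0 in both libraries (grey points). GJA5, GJA1 and GJC1 are red and PKP2 is black, with exact 95% counting intervals, and the dotted lines mark 2-fold; GJA5 lies at -2.60, below the cloud, while GJA1 (-0.02) and GJC1 (-0.18) lie inside it.

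Across genes the log2 ratio was lower the higher the GC content of the transcript. In the 1161 genes of lowest GC content its median was 0.25, and in the 1161 of highest GC content -0.47. GJA5 has a GC content of 50.5%, and in the group of 1161 genes of like GC content the median ratio was -0.01. GJA1 and GJC1, at 40.6% and 42.9%, lie in such groups with medians of 0.21 and 0.15. With a lowess curve of this trend subtracted the log2 ratios were -2.56 for GJA5, -0.20 for GJA1 and -0.32 for GJC1. GJA1 then lies outside its counting interval around the uncorrected value, though far from 2-fold. GJC1 stays inside its own. No interval was computed around the corrected values, so whether they differ from 0 was not tested.

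**Figure D4:**
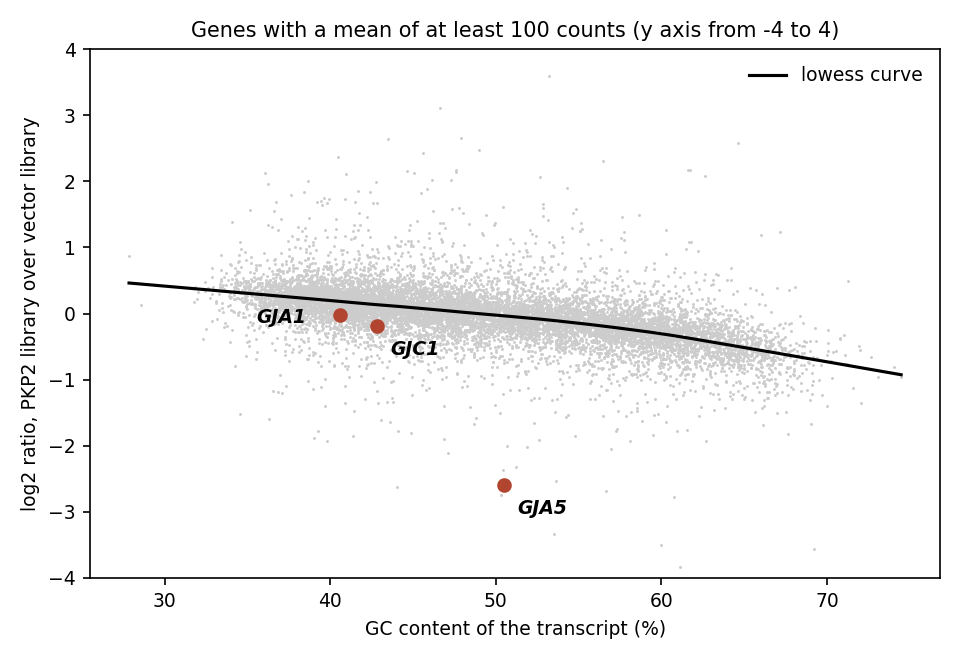
Log2 ratio, PKP2 over vector (y axis), against the GC content of the transcript in percent (x axis) for genes averaging 100 or more counts (grey), with the lowess curve (black) and GJA5, GJA1 and GJC1 (red); 4 genes outside the range shown are left out. GJA1 and GJC1 lie a little below the curve and GJA5 lies far below it, at -2.60.

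The chromosome neighbours of the members, taken as the 3 genes of the tables on either side, did not share the ratio of GJA5. ACP6, the gene of a lysophosphatidic acid phosphatase and the nearest on one side, had 418 counts in the PKP2 library and 706 in the vector library, a log2 ratio of -0.52 (interval -0.70 to -0.34). BCL9, which encodes a cofactor of beta-catenin, lies beyond it and had 1232 and 1967 counts in PKP2 and vector, a log2 ratio of -0.44 (-0.54 to -0.34). GPR89B, an ion channel gene of the Golgi on the other side, had 136 and 161 counts, a log2 ratio of -0.01 (-0.35 to 0.33), but 80.3% of its 31-base stretches occur in another gene of the tables. The remaining neighbours of GJA5, OR13Z2P, LINC02804 and ENSG00000273059, had 0 to 6 counts in each library. With the trend across GC content subtracted ACP6 was at -0.60, BCL9 at -0.35 and GPR89B at -0.12.

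None of the measured neighbours of GJA1 or GJC1 was 2-fold higher or lower either, where 2.46% of all genes were higher by that much and 4.61% lower. Around GJA1, the heat shock factor gene HSF2 was at 0.16 (interval -0.02 to 0.34) and SERINC1 at 0.31 (0.23 to 0.40). TBC1D32, a cilium gene, was at 0.10 (-0.25 to 0.45). MAN1A1, a Golgi mannosidase gene, was at -0.43 (-0.98 to 0.10), and FAM184A at 0.36 (-0.25 to 0.98). ENSG00000279453, with 42 counts in the PKP2 library and 26 in the vector library, was the farthest from 0, at 0.93 (0.19 to 1.69). Around GJC1, the splicing factor gene EFTUD2 was at -0.06 (-0.12 to 0.01) and DBF4B, an activator of the CDC7 kinase, at -0.52 (-0.71 to -0.34). ADAM11 was at -0.67 (-1.27 to -0.08). CCDC103 and FAM187A, at 0.28 and -0.82, share most of their sequence with each other, so their counts are uncertain. With the GC correction SERINC1 was at 0.08, HSF2 at -0.02 and TBC1D32 at -0.13. ENSG00000279453 was then at 0.70, DBF4B at -0.38 and ADAM11 at -0.27.

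The genes whose 2 log2 CPM values lay nearest to those of GJA5, by straight-line distance among 15976 other genes, were CANT1, RBMS2, TRIM56, TOMM40L and ERI1, at distances of 0.38 to 0.85. CANT1, a calcium-activated nucleotidase gene, had 315 counts in the PKP2 library and 1544 in the vector library, a log2 ratio of -2.06. RBMS2, an RNA-binding protein gene, had 359 and 1573 in PKP2 and vector, a log2 ratio of -1.89. TRIM56 had the same 260 counts as GJA5 in the PKP2 library. TOMM40L and ERI1 were at -1.53 and -1.40. Few genes thus lay close to GJA5 in the table. That follows from its choice by a far lower count, so nothing is read from it. The place of GJA1 and GJC1 was crowded: SNX19, FARP2 and PFDN5 lay within 0.02 of GJA1, and TICAM1, SEC61G and GSTM2 within 0.03 of GJC1. With 2 libraries, such likeness rests on 2 values a gene.

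Other large-pore channel genes were within 2-fold, as were 14860 of the 15991 genes measured. Of 9 measured pannexin, CALHM and LRRC8 genes the interval lay wholly below 0 in 4 and wholly above 0 in 3, where 28.8% and 25.9% of all genes did. The median log2 ratio was -0.09, and 0.12 after the GC correction. PANX1, whose protein releases ATP from cells, had 465 counts in the PKP2 library and 400 in the vector library, a log2 ratio of 0.45 (interval 0.26 to 0.65). LRRC8C, a subunit of volume-regulated anion channels, was at 0.57 (0.28 to 0.86), PANX2 at -0.35 (-0.60 to -0.11) and CALHM2 at -0.41 (-0.63 to -0.19). The GC correction turned the direction of PANX2, to 0.22, and left CALHM2 at -0.12.

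Of 14 measured genes of proteins that meet connexins and plakophilin 2 in the intercalated disc, PKP2 included, 10 had a log2 ratio above 0 and 4 below. Of all 15991 genes measured 7562 lay above 0 and 8429 below. The median log2 ratio of the 14 was 0.11, and 0.21 after the GC correction. The interval lay wholly above 0 in 8 of them, the delivered PKP2 included, and wholly below 0 in 1, where 25.9% and 28.8% of all genes did. PKP2, the gene that was delivered, was at least 2-fold higher, as were 2.46% of all genes. DSP, the desmoplakin gene, was at least 2-fold lower, as were 4.61% of all genes, at -1.14 with 20 and 52 counts in PKP2 and vector. ANK3, the gene of ankyrin-G, a membrane adaptor that binds sodium channels, had 3299 counts in the PKP2 library and 2298 in the vector library, a log2 ratio of 0.76 (interval 0.68 to 0.84). DSC2, a desmosomal cadherin gene, was at 0.85 (0.70 to 1.00). With the GC correction ANK3 was at 0.62, DSC2 at 0.63 and DSP at -1.17.

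All 13 measured genes of connexin scaffolds and trafficking were within 2-fold, as were 14860 of the 15991 genes measured. Their median log2 ratio was 0.11. CCN3, whose protein binds the tail of connexin 43, had 520 counts in the PKP2 library and 964 in the vector library, a log2 ratio of -0.65 (interval -0.81 to -0.50). SGSM3, a connexin 43 partner that promotes its degradation, was at -0.58 (-0.78 to -0.39), CTTN, the actin-binding protein cortactin, at -0.40 (-0.47 to -0.33) and RIC1 at 0.49 (0.34 to 0.65). With the GC correction CCN3 was at -0.70, SGSM3 at -0.23, CTTN at -0.25 and RIC1 at 0.36. Among 10 ubiquitination and sorting genes none passed 2-fold, where 4.61% of all genes were lower by that much and 2.46% higher. Their median log2 ratio was 0.07. The farthest from 0 were STAMBP (0.56), a deubiquitinase of endosomes, the ubiquitin ligase gene STUB1 (-0.52), HGS (-0.41) and TSG101 (0.31), both of the endosomal sorting machinery. After the GC correction STUB1 was at 0.006 and HGS at 0.04.

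The 11 kinase genes, whose proteins phosphorylate connexin tails, had a median log2 ratio of -0.27. None was past 2-fold, where 4.61% of all genes were lower by that much and 2.46% higher. Of the 11, 9 lay below 0 and 2 above, against 8429 and 7562 of the 15991 genes measured. After the GC correction that median was -0.05. SRC, which closes connexin 43 channels, had 3256 counts in the PKP2 library and 5299 in the vector library, a log2 ratio of -0.47 (interval -0.53 to -0.40). PRKCD was at -0.43 (-0.61 to -0.26), MAPK3 at -0.43 (-0.59 to -0.27) and PRKG1, with 42 and 71 counts in PKP2 and vector, at -0.52 (-1.11 to 0.05). With the GC correction SRC was at -0.19, PRKCD at -0.25, MAPK3 at -0.05 and PRKG1 at -0.75.

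Of 20 transcription factor genes known for binding or controlling the GJA5 or GJA1 genes, mostly in mouse heart, 15 were measured, and TBX5, NKX2-5 and SOX17 were not analysed here. Their median log2 ratio was -0.00, with 1 of 15 at least 2-fold lower and none higher, where 4.61% and 2.46% of all genes were. That one was IRX3, which in the mouse conduction system raises connexin 40 and lowers connexin 43. It had 112 counts in the PKP2 library and 267 in the vector library, a log2 ratio of -1.02 (interval -1.35 to -0.69), and -0.55 after the GC correction. FOXF1, a factor of lung mesenchyme, had 75 and 153 counts in PKP2 and vector, a log2 ratio of -0.79 (-1.21 to -0.38). KLF4 was at 0.65 (0.53 to 0.77) and HOPX at 0.58 (0.38 to 0.79).

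Notch signalling is known to accompany connexin 40 in arterial endothelium. Of 13 measured Notch and arterial genes 9 lay below 0, as did 8429 of the 15991 genes measured. The median log2 ratio of the 13 was -0.46, and -0.33 after the GC correction. The interval lay wholly below 0 in 8 of them, where 28.8% of all genes did, and wholly above 0 in 3, where 25.9% did. The receptor gene NOTCH1 had 782 counts in the PKP2 library and 1717 in the vector library, a log2 ratio of -0.90 (interval -1.02 to -0.78). UNC5B, a netrin receptor gene, was at -0.92 (-1.30 to -0.54) and the ligand gene JAG2 at -0.75 (-0.95 to -0.55). NOTCH4, an endothelial receptor gene, went the other way with 39 and 10 counts in PKP2 and vector, a log2 ratio of 2.20 (1.17 to 3.37). It was the sole gene of the list past 2-fold, where 2.46% of all genes were higher by that much and 4.61% lower. With the GC correction NOTCH1 was at -0.47, UNC5B at -0.60, JAG2 at -0.27 and NOTCH4 at 2.57.

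**Figure D5:**
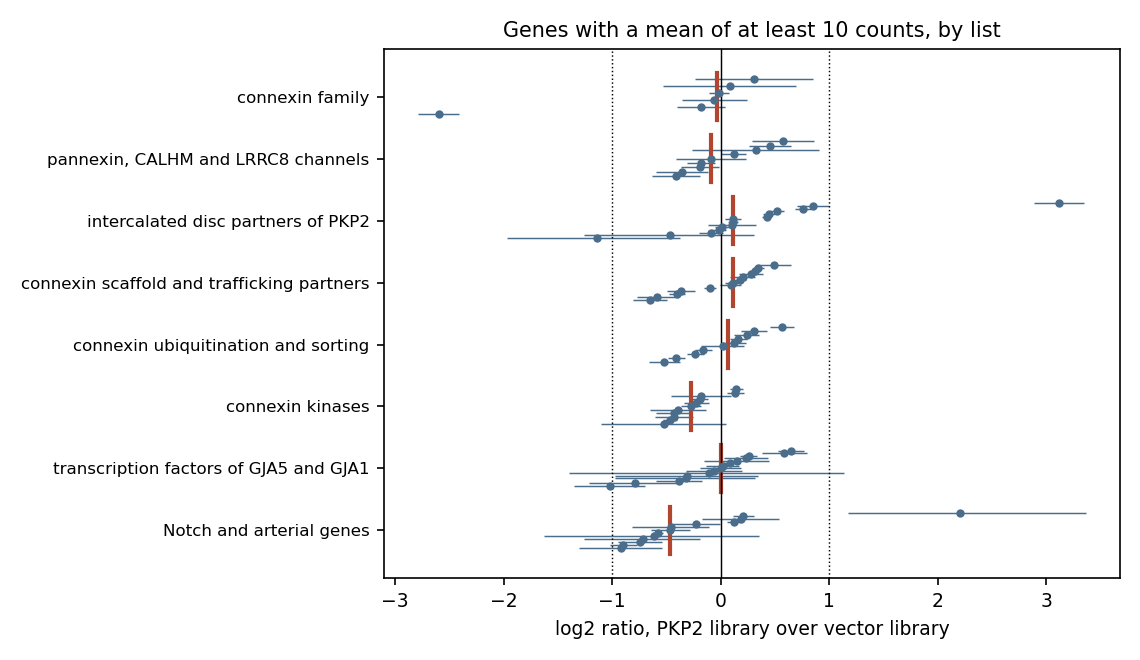
Log2 ratio, PKP2 over vector (x axis), for each measured gene in 8 gene lists (rows), with exact 95% counting intervals; red bars are list medians and dotted lines mark 2-fold. GJA5, picked for its ratio, lies at -2.60 in the top row. Most genes of every list lie within 2-fold, as do 14860 of the 15991 genes measured.

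Endothelial cells and heart muscle cells are known for connexin 40, and their markers were scarce here except RYR2. Of 9 endothelial markers 3 have a row in the tables, with a summed 2 counts in the PKP2 library and 6 in the vector library; VWF and KDR had 0 and 2 counts each and EMCN had 2 and 2. Of 9 cardiomyocyte markers 3 have a row. RYR2, the ryanodine receptor gene, had 1061 and 1067 counts in PKP2 and vector, or 52.7 CPM and 45.0 CPM, while the sarcomere genes TNNI3 and ACTN2 had 24 and 36 and 6 and 9. Of 6 fibroblast markers 4 have a row, with a summed 30.3 CPM in the PKP2 library and 52.3 in the vector library. Among them COL3A1 (333 and 973 counts) and COL1A1 (48 and 132) were at least 2-fold lower in the PKP2 library and PDGFRB (208 and 111) was at least 2-fold higher, where 4.61% and 2.46% of all genes were. After the GC correction COL1A1, at -0.87, was no longer 2-fold lower. The part of these genes in the ratio of GJA5 was not tested. Of 5 leukocyte markers 2 have a row, CD14 with 23 and 90 counts and LYZ with 0 and 4, summing to 1.14 CPM in the PKP2 library and 3.96 in the vector library, and their part was not tested either.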

How the data were processed

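The labels give the TruSeq RNA kit and total RNA, and Bowtie 0.12.2 and builds GRCh37 and hg19 are named in the submitters' processing notes. The counting program, its annotation and any use of strand were not given in the sources used here. Per the file headers the authors deposited unnormalized counts, listed by Ensembl ID. They are classed as estimated counts, as deposited, because 1 damaged row holds a decimal. That row and a row without a value were left out of each file, so 22965 genes remained, 22579 with a symbol. Their total counts were 20319137 and 23513304 for PKP2 and vector.

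Library sizes were totals times TMM factors (edgeR 4.0.16, R 4.3.3), 0.991 for PKP2 and 1.01 for vector. With 1 library per group edgeR's test has no residual spread to work from, so none was run. Log2 ratios had no pseudocount, and their 95% intervals are exact binomial intervals of the 2 counts. Without molecular identifiers reads can be copies of 1 molecule, so these intervals cover counting error only. GC content and length came from GENCODE release 29 by gene ID, from the longest APPRIS principal transcript, else the longest. That release is on another build, so no coordinates were used. To correct for GC content, a lowess curve (statsmodels 0.14.6, fraction 0.3) fitted to the 11610 genes averaging 100 or more counts was subtracted, or the median of the 100 nearest genes in GC content and length. DESeq2 1.42.0 size factors were an alternative scaling. The steps were tested on simulated counts whose only random variation was counting error. That test cannot show how libraries or cultures vary.

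The members, lists and thresholds were chosen with earlier results of these data known. Named genes are PKP2, the members, the other connexin genes, up to 4 measured genes per list farthest from 0, the 3 neighbours per side, and the genes nearest in level (5 for GJA5, 3 for the others). TBX5 and other genes named as not analysed, NKX2-1, ACTN2, VWF, KDR, EMCN, LYZ and GJA1P1 were named after the values were seen. A few items are not reported here and were left out of the connexin list before its sums and medians were computed.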

Additional observations from a re-analysis of the deposited data

How the results depend on the processing

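Each member's log2 ratio was recomputed with 3 other scalings, 3 pseudocounts, the GC curve and the nearest genes in GC content and length. GJA5 stayed between -2.63 (library totals) and -2.22 (5 CPM added). GJA1 ranged from -0.20 (GC curve) and -0.19 (nearest genes) to 0.002, and GJC1 from -0.38 to -0.14. The family median lay between -0.17 and -0.02. Under all 12 alternatives tried 1 connexin gene, GJA5, was at least 2-fold lower (or past the altered threshold) and 0 higher. Besides the settings above these were no count filter, a mean of at least 50 counts, and thresholds of 1.5-fold and 3-fold. With the main settings 4.61% of all genes were at least 2-fold lower and 2.46% higher. GJA5 was picked for its lower count, so nothing is read from these counts of genes. The share of GJA5 among the 3 genes was 12.7% in the PKP2 library and 46.3% in the vector library per kilobase, and 10.5% and 40.9% over all 6 connexin genes described. Low counts limit GJA3 and GJB7. No paired analysis was possible because each group has 1 library.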
